A study of Mus musculus with 21 samples.

Results

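Ash1L is a Trithorax-group protein that methylates lysine 36 of histone H3, and its binding in C2C12 cells, a mouse myoblast line, was measured by chromatin immunoprecipitation and sequencing (ChIP-seq). A pair of neighbourhoods of noncoding genes is described here, the Lncppara locus on chromosome 15 and the AL805899.1 locus on chromosome 4. Their members are the merged Ash1L regions that overlap chr15:85600000-85750000 or chr4:88880000-88990000 (mm10), which were 15 of the 259 regions in the deposited merged list, 13 at Lncppara and 2 at AL805899.1. The intervals were chosen from the peaks themselves, so the number, width and height of the regions are given as a description, without a test. All values come from 3 replicates of a single group, C2C12 cells kept for 24 hours (day 1) in medium with 2% donor horse serum and immunoprecipitated with a rabbit antibody against Ash1L, from independent experiments according to the submitters. The peaks of each replicate were found by the authors against an input library, with no second condition to compare with. Other libraries of the series were not analysed here.

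Both loci carry a long noncoding RNA that is also a microRNA host gene, a transcript from which a microRNA hairpin can be cut. Mirlet7c-2 and Mirlet7b encode members of the let-7 family, which accumulates as cells differentiate and represses Lin28, while Mir31 encodes miR-31, known in quiescent muscle satellite cells for restraining translation of the Myf5 mRNA. MicroRNAs find their targets mainly through the seed, bases 2 to 8 of the mature strand. The mature microRNAs of both loci are shown because they are the best known products of these host genes. In the RefSeq sequences below, written 5′ to 3′, capitals mark the seed.
let-7c-5p: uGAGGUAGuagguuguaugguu
let-7b-5p: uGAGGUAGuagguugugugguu
let-7c-2-3p: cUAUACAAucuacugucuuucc
let-7b-3p: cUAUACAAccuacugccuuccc
miR-31-5p: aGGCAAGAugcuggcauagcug
miR-31-3p: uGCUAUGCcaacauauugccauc

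The chromosome 15 pair shared its seeds on both arms. The 5p arms of let-7c and let-7b differed by 1 substitution, A17G, counted from the 5′ end of let-7c-5p, and their seed was found in 11 of the 1679 mature mouse microRNA names in the RefSeq table. The 3p seed was found in 5 names. Each of the miR-31 seeds belonged to a single name.

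In the GENCODE M21 annotation both hosts held the microRNA in the last exon. The longer Lncppara transcript (+ strand, chr15:85653616-85707524) has 7 exons. Its exon 7 holds Mirlet7c-2 (chr15:85706603-85706697) and, 621 bp further on, Mirlet7b (chr15:85707319-85707403). AL805899.1 (− strand, chr4:88909855-88938521) has 3 exons, and exon 3 holds Mir31 (chr4:88910557-88910662). The hairpins began 52987 bp (Mirlet7c-2), 53703 bp (Mirlet7b) and 27859 bp (Mir31) downstream of the start of their host transcript. No member overlapped a microRNA. Distances to the nearest one ran from 21637 bp to 47684 bp over the 15 members (median, 28962 bp), and 51 of the other 227 regions on assembled chromosomes (22.5%) lay within that larger distance. The median distance of those 227 was 288954 bp. In GENCODE, 14 of the 15 members overlapped a noncoding gene with a microRNA inside an exon, the exception being the small second region on chromosome 4. Of the other 227 regions, 2 did (0.881%), both at Dnm3os. The count of members rests on the gene models, since in RefSeq 2 of the 15 overlapped such a gene, both of them on chromosome 4, and none of the Lncppara regions did. The other regions were not counted in RefSeq, so the RefSeq count has no share to stand beside it. Since the loci were picked with their genes known, these shares are descriptive.

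Ash1L occupied Lncppara as a broken row of regions around a single broad and high one. The 13 regions, numbered 1 to 13 by position, ran from chr15:85655862 to 85684019, a span of 28158 bp of which 21263 bp (75.5%) were covered. The 12 gaps between them were 127 bp to 2783 bp long, with a median of 274.5 bp. When regions within 10 kb were joined, this was the locus with the most regions of 119 and the third by covered length. The next region to the right on the chromosome was 17.3 Mb away, at Hotair, and none lay to the left.

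**Figure D1:**
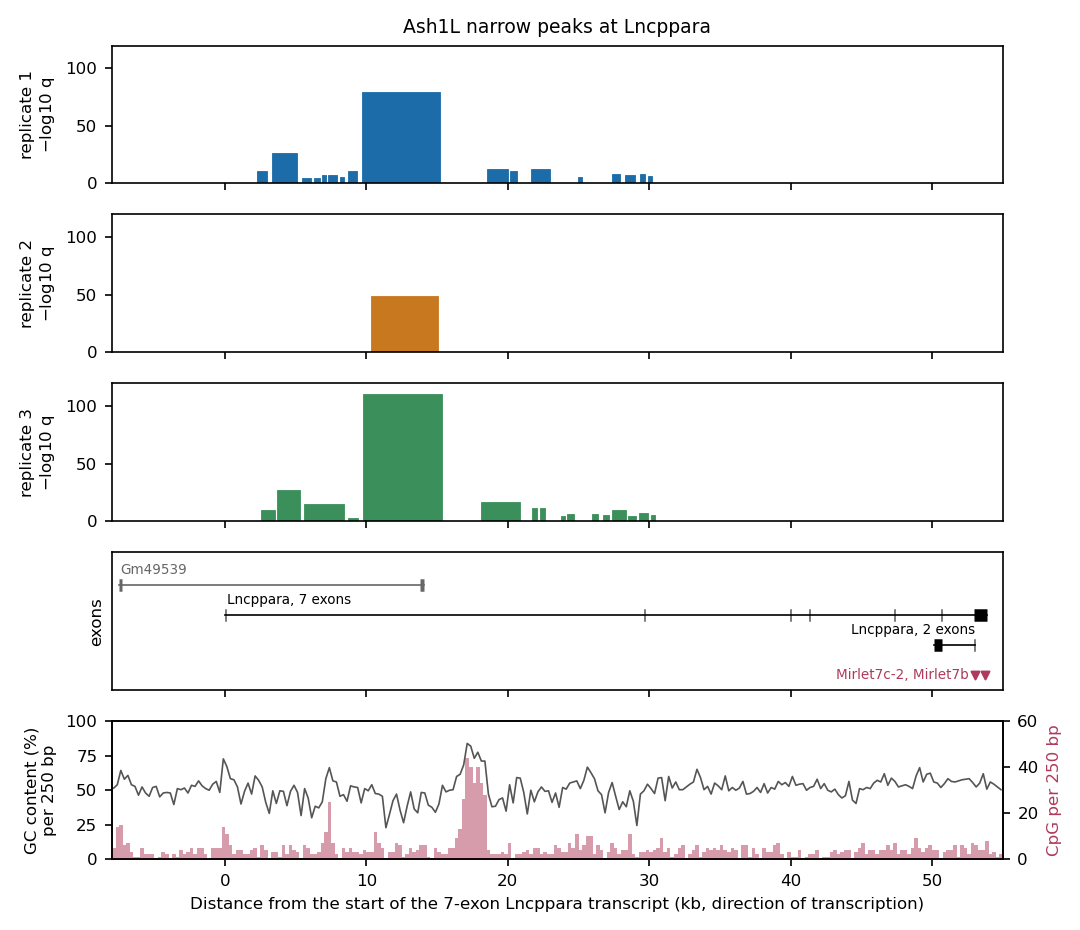
Ash1L narrow peaks at Lncppara in the 3 replicates, as bars from start to end of each peak with the highest −log10 q of the peak as height, above the exons of the GENCODE transcripts, the microRNA hairpins (triangles) and the GC content (line) and CpG count (bars) of 250-bp bins. The horizontal axis is the distance in kb from the start of the 7-exon transcript; the broad peak was present in all 3 replicates, the lower ones in replicates 1 and 3, and the GC-rich stretch to its right held no peak.

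The broad element, region 4 (chr15:85663296-85668938, 5643 bp), was the only Lncppara region found in all 3 replicates. Peak height is given as the −log10 of the q-value at the highest summit, a measure of confidence over the input and not of the amount of bound protein. It was 79.9 in replicate 1, 49.3 in replicate 2 and 110.8 in replicate 3 (80.0 ± 30.7, SD, n = 3). The replicates thus differed in height while their edges were close. The peak covered 5552 bp, 4743 bp and 5580 bp in replicates 1, 2 and 3, with starts within 650 bp and ends within 250 bp of each other, and all 3 shared 4743 bp (84.1% of the region). Among the 259 regions it ranked 13th by width and 2nd by height. By height it ranked 3rd of 240 peaks in replicate 1, 2nd of 35 in replicate 2 and 1st of 228 in replicate 3.

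Region 4 was a many-peaked domain with its height towards the middle. Its summits are listed by letter in the order along the chromosome, without their positions. Replicate 1 had 20 summits, with a median of 37.7 and the highest at the 9th. Replicate 3 had 17 summits, with a median of 38.9 and the highest at the 10th. In replicate 2 there were 5, with a median of 30.8 and the highest at the 2nd. The medians lay closer together than the highest values did. The first summits were low in replicates 1 and 3, and the last was low in replicates 1 and 2.

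**Figure D2:**
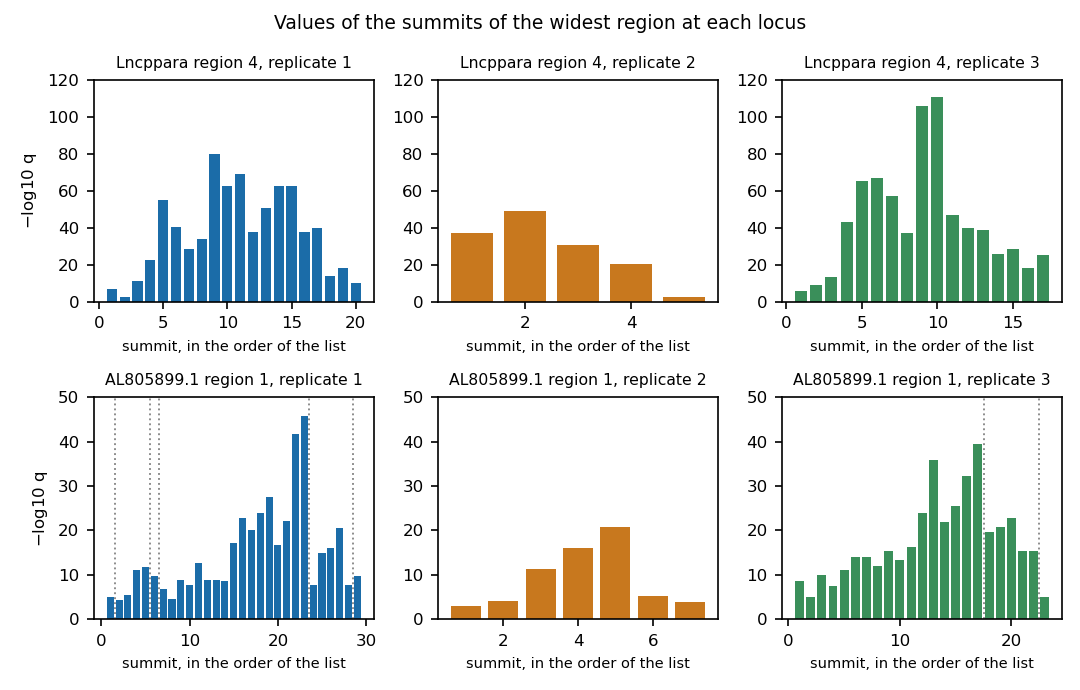
Height (−log10 q) of each summit of Lncppara region 4 (upper panels) and AL805899.1 region 1 (lower panels) in replicates 1, 2 and 3, in the order of the list along the chromosome, with dotted lines where one peak ends and the next begins. Lncppara region 4 was highest near the middle in replicates 1 and 3 (79.9 and 110.8), while AL805899.1 region 1 was highest at the last summit of its widest peak in both (45.8 and 39.5).

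The other 12 Lncppara regions were lower, and none was in the list of replicate 2, which holds 35 peaks. Region 1 (chr15:85655862-85658919, 3058 bp) reached 26.7 in replicate 1 and 27.4 in replicate 3, nearly the same height. Region 2 (2998 bp) reached 7.24 and 15.3, and region 5 (2745 bp) 12.5 and 16.8. Regions 6, 12 and 13 also had peaks in both of these replicates, of 12.7 and 11.5, of 8.43 and 9.59, and of 7.76 and 6.90. Neither replicate was higher throughout. Region 3 stood at 10.3 in replicate 1 and 2.98 in replicate 3. Region 9 was found only in replicate 1, at 5.42, and regions 7, 8, 10 and 11 only in replicate 3, from 4.87 to 6.64. Over the whole locus replicates 1 and 3 shared 14629 bp, 68.8% of the bases that either of them covered, and all 4743 bp of replicate 2 lay inside the peaks of both. Read counts are not part of the lists, so the depth behind an absent peak is unknown.

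Which gene the row belonged to depended on the annotation. In GENCODE M21, regions 1 to 12 lay wholly in intron 1 of the 7-exon Lncppara transcript (chr15:85653660-85683235), and the row covered 69.2% of that intron. Its start site was 2246 bp before region 1 and so outside every region. RefSeq gives Lncppara a later start, at chr15:85703773, as does the shorter 2-exon transcript of GENCODE. That start was 19754 bp past region 13, and no region overlapped the RefSeq gene. Gm49539, a long intergenic noncoding RNA on the same strand (chr15:85646083-85667675), overlapped regions 1 to 4, and its exon 2 (chr15:85667378-85667675, 298 bp) lay within region 4 in all 3 replicates. Among protein-coding genes, Ppara, the nuclear receptor that drives fatty acid oxidation genes, began 50964 bp past region 13 and 66045 bp past region 4. Beyond it, Cdpf1 lay 122953 bp past region 13. Wnt7b, which encodes a secreted Wnt ligand, was 73389 bp from region 1 on the other side. Further noncoding genes of RefSeq in the interval were D130051D11Rik, 15338 bp before region 1, and Gm34622 and Gm46529, 24852 bp and 39831 bp past region 13.

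A single exon of Lncppara itself was touched by the row. Exon 2 of the 7-exon transcript (chr15:85683236-85683314, 79 bp) lay in region 13, within the peaks of replicates 1 and 3. It is printed from the GRCm38 reference, + strand, chr15:85683216-85683334, with the exon in capitals and the adjoining intron bases in lower case.
Lncppara exon 2: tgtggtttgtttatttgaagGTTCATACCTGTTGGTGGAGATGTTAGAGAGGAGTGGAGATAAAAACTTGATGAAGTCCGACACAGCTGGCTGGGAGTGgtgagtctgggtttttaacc
The exon was preceded by ag and followed by gt, the usual bases at splice sites.

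At AL805899.1 the binding was more compact. Region 1 (chr4:88932299-88940931, 8633 bp) was present in all 3 replicates, and region 2 (chr4:88941045-88941447, 403 bp) in replicate 3 only, at 6.05. Together they covered 9036 bp of a 9149-bp span (98.8%), with a single gap of 113 bp. The heights of region 1 were 45.8 in replicate 1, 20.8 in replicate 2 and 39.5 in replicate 3 (35.4 ± 13.0, SD, n = 3). As at Lncppara, replicate 2 was the lowest. The whole list of replicate 2 was low, with a median summit value of 6.95 against 12.7 in replicate 1 and 14.6 in replicate 3. As a merged region, AL805899.1 region 1 was wider than Lncppara region 4 and less high, ranking 5th of the 259 by width and 14th by height. Its width rested on replicate 2, since the widest single peaks of replicates 1, 2 and 3 measured 3363, 8239 and 5569 bp and ranked 21st, 3rd and 8th by width in their lists. Without replicate 2 the locus held 4 merged regions. The next region to the right was 20.7 Mb away and again none lay to the left.

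**Figure D3:**
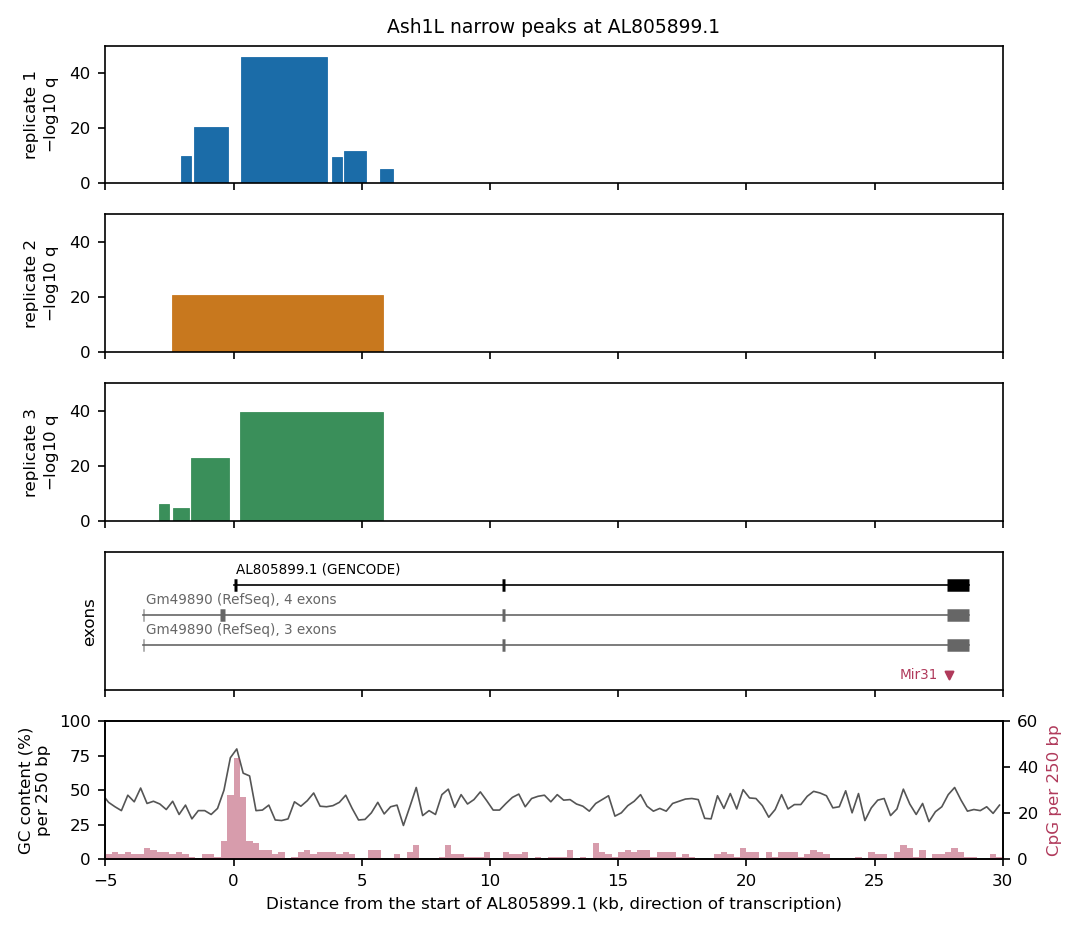
Ash1L narrow peaks at AL805899.1 in the 3 replicates, drawn as bars from start to end with the highest −log10 q as height, above the exons of AL805899.1 and of the RefSeq gene Gm49890, the Mir31 hairpin (triangle) and the GC content (line) and CpG count (bars) of 250-bp bins. The horizontal axis is the distance in kb from the start of AL805899.1 in the direction of transcription. The peaks of replicates 1 and 3 broke off around the start site, where the CpG count was highest. The peak of replicate 2, whose list had the largest median peak width (3109 bp), did not.

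The replicates divided region 1 differently. Replicate 2 had a single peak of 8239 bp with 7 summits. Its peaks were wide over the whole list, with a median width of 3109 bp, against 514 bp in replicate 1 and 592.5 bp in replicate 3. Replicate 1 had 6 peaks with 29 summits, covering 6840 bp, and replicate 3 had 3 peaks with 23 summits, covering 7685 bp. The bases shared by all 3 came to 6367 (73.8%). Height rose in the order of the summits to a maximum past the middle of that order in each replicate. In replicate 1 the highest summit was the 17th of 17 in a peak of 3363 bp that ended at chr4:88938244, and in replicate 3 it was the 17th of 17 in a peak of 5569 bp that ended at chr4:88938264. In replicate 2 it was the 5th of 7. The summits to the right of those breaks reached 20.5 in replicate 1 and 22.9 in replicate 3.

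The break in replicates 1 and 3 lay over the start of AL805899.1. In replicate 1 the next peak began at chr4:88938721, leaving 476 bp without a peak, and in replicate 3 at chr4:88938699, leaving 434 bp. The start site (chr4:88938521) and the whole of exon 1 (chr4:88938397-88938521, 125 bp) fell inside these stretches. Exon 1 thus had 0 of 125 bp in a peak in replicates 1 and 3 and all 125 bp in replicate 2, and the merged region covered it through replicate 2 alone. The start is printed from the GRCm38 reference, chr4:88938377-88938671, − strand, with exon 1 in capitals between the upstream bases and the beginning of intron 1.
AL805899.1 exon 1: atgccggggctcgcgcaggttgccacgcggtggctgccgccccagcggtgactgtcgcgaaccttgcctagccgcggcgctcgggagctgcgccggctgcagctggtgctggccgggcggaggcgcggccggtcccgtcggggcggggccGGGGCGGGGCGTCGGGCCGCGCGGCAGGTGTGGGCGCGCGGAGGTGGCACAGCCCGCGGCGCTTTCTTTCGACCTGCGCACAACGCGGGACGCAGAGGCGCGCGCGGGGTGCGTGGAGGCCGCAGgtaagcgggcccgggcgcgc

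This start site was rich in CpG dinucleotides, a feature of many vertebrate promoters. The stretch without a peak had a GC content of 78.2% in replicate 1 and 79.0% in replicate 3, against 39.8% and 38.9% in the peaks on either side of it. It held 78 and 72 CpG, and its observed-to-expected CpG ratio was 1.09 in both, against 0.437 and 0.400 in the flanking peaks. Of all 131 gaps of up to 5000 bp between neighbouring peaks of replicate 1, this one ranked 1st by the difference in GC content from its flanks, 2nd by GC content and 11th by the number of CpG. Of the 128 such gaps of replicate 3 it ranked 1st, 2nd and 16th. The 300 bp with the most CpG in region 1 (chr4:88938243-88938542) held 58, the highest count of any such window in the 202 regions of at least 300 bp, whose median was 10. Of these 300 bases the peaks of replicate 1 took in 2, those of replicate 3 took in 22 and the peak of replicate 2 took in all 300. None of the bases between the peaks was marked as repeat. Whether read coverage at this base composition took part in the break was not tested, because the lists hold no coverage.

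The widest gap at Lncppara was of a similar kind. To the right of region 4, 2783 bp without a peak in any replicate (chr15:85668939-85671721) had a GC content of 65.4%, against 43.7% in the regions on either side, and held 234 CpG with an observed-to-expected ratio of 0.786. Of the 127 gaps of up to 5000 bp between neighbouring merged regions, it ranked 4th by the difference in GC content from its flanks, 15th by GC content and 1st by the number of CpG, a count that grows with length. Replicate 3 left exactly this stretch bare, and replicate 1 left 3269 bp (chr15:85668848-85672116) at 65.5% GC. Unlike at AL805899.1, no annotated start site of GENCODE M21 lay in it. Repeats made up 8.44% of the gap and 15.1% of the regions. The 300 bp with the most CpG in the gap (chr15:85670605-85670904, + strand, GRCm38) are shown for comparison with the AL805899.1 start, here with every CpG in capitals.
Lncppara gap: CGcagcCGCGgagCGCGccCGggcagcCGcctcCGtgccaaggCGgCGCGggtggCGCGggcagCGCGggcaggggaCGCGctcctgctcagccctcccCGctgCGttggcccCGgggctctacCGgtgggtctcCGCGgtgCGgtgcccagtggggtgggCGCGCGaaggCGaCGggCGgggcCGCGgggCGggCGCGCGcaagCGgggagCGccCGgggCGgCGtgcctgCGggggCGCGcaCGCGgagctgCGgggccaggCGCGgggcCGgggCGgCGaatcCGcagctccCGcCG
The window held 55 CpG at a GC content of 84.3%, near the 58 CpG and 81% of the AL805899.1 window, and the nearest annotated start site was 17138 bp from its middle. GC-rich gaps were not the rule, however. In replicate 1, 64 of 131 gaps had a higher GC content than their flanks, and in replicate 3, 60 of 128. Among the gaps of the members the gap was the richer in 9 of 21 and in 7 of 18. An annotated start lay in 20 of the 131 gaps (15.3%) and in 21 of the 128 (16.4%).

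The RefSeq annotation moved the chromosome 4 start away from the break. RefSeq names the gene Gm49890 (chr4:88909854-88942042, − strand) and gives it 2 transcripts that start at chr4:88942042, 595 bp to the right of region 2. Both regions were inside the gene. Exon 2 of its 4-exon transcript (chr4:88938841-88939042, 202 bp) lay in region 1, and both transcripts shared with AL805899.1 the exon at chr4:88927933-88928038. The 300 bp around the AL805899.1 start held 38 CpG, which placed it at the 95.0th percentile of the RefSeq promoters, whereas those around the Gm49890 start held 4 and were at the 31.4th. By the GENCODE model 2813 bp of the regions lay upstream of the start and 6098 bp in intron 1. Ifne, which encodes the epithelial interferon epsilon, was the nearest protein-coding gene, 52098 bp from region 1, followed by Ifna1, 81643 bp away on the same side. To the right, Mtap, an enzyme of methionine salvage, began 195675 bp from region 2, and the noncoding Gm34568 lay 14969 bp from it.

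None of the members met a common rule for CpG-rich DNA over its whole length. As whole regions, 0 of 15 had a GC content of at least 50% together with a CpG ratio of at least 0.6, against 51 of the other 227 (22.5%). GC content ran from 36.7% in AL805899.1 region 2 to 58.1% in Lncppara region 10, and the median of the members (48.6%) was near that of the others (47.5%). The median CpG ratio was 0.251 at Lncppara and 0.424 in the other regions. The loci met in this measure, with Lncppara regions 2 and 5 at 0.443 and 0.441, AL805899.1 region 2 at 0.443 and AL805899.1 region 1 at 0.525. Region 1 of Lncppara had the lowest ratio, 0.232, of the 44 regions of at least 2000 bp. Region 4, the high one, had 41.3% GC, a ratio of 0.374 and 21.3% repeat bases.

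**Figure D4:**
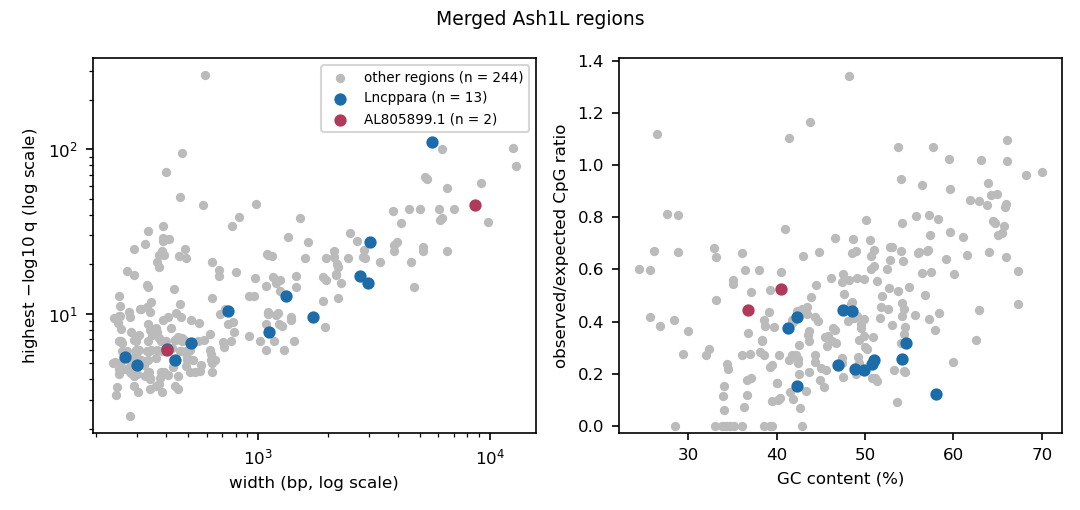
Width against highest −log10 q, both on log scales, of all 259 merged Ash1L regions (left), and GC content against observed-to-expected CpG ratio of the 242 on assembled chromosomes (right), with the Lncppara regions in blue, those of AL805899.1 in red and the others in grey. Lncppara region 4 (5643 bp, 110.8) and AL805899.1 region 1 (8633 bp, 45.8) lie at the wide end, and on the right the Lncppara points keep to a ratio between 0.120 and 0.443; AL805899.1 region 2 overlies Lncppara region 10 on the left.

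Short DNA motifs were counted on both strands of the regions as a description. The E-box CACGTG, the form bound by Myc, Max and USF proteins, stood out at Lncppara and was singled out after the counts of 9 motifs had been seen. It occurred 9 times in 8 of the 13 regions (61.5%), or 0.423 per kb, against 24 of the other 227 regions (10.6%) and 0.101 per kb, and not at all at AL805899.1. Outside the regions the Lncppara interval had 0.140 per kb and chromosome 15 as a whole 0.106 per kb. In a window of 300 bp centred on the middle of each region, extending past the edges of shorter regions, 4 of 13 had it, against 4 of 227 (1.76%). Of the RefSeq promoters, also windows of 300 bp, 7.15% did. The 9 matches are printed with 12 bases on each side (GRCm38, + strand), the motif in capitals, to show that their surroundings differed.
region 2, chr15:85659810-85659839: gcattccttaaaCACGTGgtattttcatag
region 3, chr15:85662903-85662932: cttaggtcagtcCACGTGactttcttatga
region 3, chr15:85662946-85662975: cacgatgaggagCACGTGtctgagattttt
region 4, chr15:85664184-85664213: cacgcacacgcaCACGTGcacatacatatg
region 6, chr15:85675884-85675913: tggactgtgagcCACGTGagatttcccttg
region 7, chr15:85677517-85677546: cctatcatagtcCACGTGtgtcaactgcta
region 8, chr15:85678076-85678105: ctggcaagcagtCACGTGgccgtatacgtg
region 12, chr15:85682291-85682320: ctctccttccacCACGTGgctcccgagaat
region 13, chr15:85683501-85683530: ctttgggaagagCACGTGctgggggggatg
Of these, 2 were repeat-masked, including the match of region 4, which sat in a run of alternating CA. That match was in the peaks of all 3 replicates, 3 matches were in those of replicates 1 and 3, and 5 were in the peaks of replicate 3 alone.

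The other motifs searched are given by their density. CAGGTG had a density of 0.941 per kb at Lncppara and 0.996 at AL805899.1, against 0.419 in the other regions. Its share in the centred 300-bp window was 2 of 13 at Lncppara (15.4%), 1 of 2 at AL805899.1 and 22 of 227 in the other regions (9.69%). CAGCTG, the E-box favoured by MyoD, stood at 0.470, 0.221 and 0.409 per kb in the same order. GAGAG, the core of the GAGA element, occurred in 76.9% of the Lncppara regions and 77.5% of the other 227 regions. The median width was 1117 bp at Lncppara and smaller, 464 bp, over all 244 other regions, including those off assembled chromosomes. In the centred 300-bp window GAGAG was found in 4 of 13 (30.8%) and 132 of 227 (58.1%). Its pooled densities were 2.49 per kb at Lncppara, 6.75 at AL805899.1, where all matches were in region 1, and 6.94 in the other regions, but the median density over all regions was 3.45 per kb. The Sp1 core GGGCGG was at 0.329, 0.443 and 0.673 per kb. For the TEAD motif ACATTCC the densities were 0.188, 0 and 0.112 per kb, and for the AP-1 motif TGANTCA 0.141, 0.443 and 0.159. YY1 sites (GCCAT and TT with any base between them) were at 0.235, 0.111 and 0.142 per kb, and MEF2 sites (CTA and TAG with any 4 bases between them) at 0.0941, 0.111 and 0.189. The counts at AL805899.1 rest on 2 regions, and a match is a run of letters and not a measured binding site.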

How the data were processed

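Ash1L ChIP-seq peak lists of 3 replicates and the merged list were used. According to the study's methods, the authors trimmed the paired reads, mapped these with BWA-MEM (genome build mm10), discarded duplicates, kept uniquely mapped proper pairs outside blacklisted regions, and called narrow peaks with MACS2 in each replicate against the input (q under 0.05, slocal 2000). The deposited lists give, for each summit, the peak, a letter and an unnamed value, read here as the −log10 of the MACS2 q-value by the authors; the file does not name this unit. Summit positions and read counts are not in these lists, so depth and counting error are unknown, and the planned positions of the highest summits were replaced by letter order. Versions of the authors' tools are not given here because the labels list conflicting ones. Removal of duplicates, the unique-mapping filter and calling against an input each affect which bases can carry a peak.

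From the lists, peaks were intersected and merged with bedtools 2.31.1 and Python 3.11.15; merging the 3 narrow lists gave back 259 of the 259 deposited regions, although the study's methods describe a merge of broad peaks, so the widths given are those of merged narrow peaks. A region was in a replicate where a peak overlapped it by at least 1 bp, and its value was the highest of its summits. Genes were taken from GENCODE M21 and RefSeq GRCm38.p6, both in the coordinates of mm10, and microRNA sequences from RefSeq, where 9 of 9 equalled the genome. GC content, the CpG ratio (CpG count times length, over the product of C and G counts), repeat-masked bases and motifs were computed on the 242 regions on assembled chromosomes. Scripts were tested on simulated data. The genes named are all those annotated in the intervals, the nearest protein-coding gene on each side and the 3 microRNAs; the gap and CACGTG counts were singled out after their values were seen. The members and lists were chosen with earlier results of these data known, and no test was run. Alternatives tried were a minimum value of 5, leaving out each replicate, joining neighbours, a stricter overlap, summit medians, other windows and other annotations.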

Additional observations from a re-analysis of the deposited data

How the results depend on the processing

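Of 72 comparisons of 26 values with an alternative, 62 planned and 10 added after seeing the data, 48 moved by less than the spread between replicates or stayed within 1.5 times, and 24 moved more; the cause was not tested except where an alternative's construction gives it. Joining regions within 1 kb left 2 regions at Lncppara and 1 at AL805899.1, and joining within 10 kb left 1 at each. Leaving out each replicate gave 13 to 17 regions at Lncppara and 1 to 4 at AL805899.1. The 4 came without replicate 2, whose peak alone bridges the start site and a short stretch between chr4:88940168 and chr4:88940179. The 1 came without replicate 3. Requiring an overlap of at least 50% of both peak and region lowered the members in at least 2 lists from 9 to 5. Those in 3 lists fell from 2 to 1. The one lost was AL805899.1 region 1, where the widest peak of replicate 1 took in 3363 of 8633 bp. The median over summits in place of the highest gave 37.7 and 38.9 for Lncppara region 4 in replicates 1 and 3, and 11.1, 5.23 and 15.4 for AL805899.1 region 1 in replicates 1, 2 and 3. Within single lists, the width rank was 5 (replicate 1) and 7 (replicate 3) for the first, and 21, 3 and 8 in replicates 1, 2 and 3 for the second; the height rank was 1 (replicate 3) for the first and 9 (replicate 2) for the second. In the middle 500 bp, an added window, the CpG ratio of Lncppara region 4 was 0.586. With protein-coding genes only, the nearest start was at 66045 bp from Lncppara region 4 and 52098 bp from AL805899.1 region 1, and from the middle of the latter the nearest start of any gene was at 1906 bp. The planned windows around the highest summit and the range of summit positions were not run, since the lists give no positions. No paired analysis was possible because the lists hold a single group. Depth is unknown, so a peak missing from a replicate, above all replicate 2 with 35 peaks, cannot be told apart from one below its detection.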
